A study of Homo sapiens with 12 samples.

Results

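The combined treatment of T98-G glioblastoma cells, 1 µM onametostat for 48 h at 1% oxygen, was compared with the baseline of the study, 0.1% DMSO for 48 h at 20% oxygen. T98-G is an established line from a human glioblastoma, and onametostat is an inhibitor of the arginine methyltransferase PRMT5. The comparison used the 6 libraries that carry these labels (3 of onametostat in hypoxia and 3 of DMSO in normoxia) of the 12 in the series, and all 14698 genes of the count table. The other 6 libraries, 3 of DMSO at 1% oxygen and 3 of onametostat at 20% oxygen, give the effect of each treatment alone. This layout puts a direct question to each gene, namely whether the joint change equals the sum of the single changes or appears only when both treatments act. All libraries come from 1 cell line and 1 dose, and the libraries of each condition are numbered 1 to 3 after experiments that the study calls independent. What was separate between these experiments (passage, day or treatment) is not given in the sources used here, so p-values measure the spread between these libraries.

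PRMT5 places symmetric dimethyl marks on arginines of the Sm proteins, which form the core of the spliceosome, and of histones. Its inhibition is known to disturb splicing, mostly of introns with weak splice sites, and to slow proliferation. Low oxygen stabilises the HIF transcription factors, whose targets encode carbonic anhydrase, glucose transporters, glycolytic enzymes and angiogenic factors. Glioblastomas are known for hypoxic regions in which this programme is active.

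Library totals ran from 403279 to 45977729 counts. Library 3 of onametostat in hypoxia had 403279 counts against 21049160 and 7641280 in the other two libraries of that condition, and 2978 of the 14698 genes had no count in it against 77 or fewer in every other library. A single count in that library was worth 2.69 CPM (the usual unit of counts scaled to a common library size, here after TMM scaling), and 3 counts 8.07 CPM. It also held 53 genes at no less than 4 times the level of the highest of the other 11 libraries, which took 10.9% of its counts against 0.451% to 0.487% elsewhere. Every result below was therefore also computed without this library, called the shallow library. Genes expected in a glioblastoma or mesenchymal line were present (7 of 10 markers). Of the markers of neurons, oligodendrocytes, microglia, endothelial cells, epithelial cells and lymphocytes, 7 of 41 were in the table, and their summed level per list and library stayed at or under 10.6 CPM.

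The labels for oxygen were checked with 31 measured HIF target genes. None passed the threshold for a differentially expressed gene (DEG, a log2 fold change above 1 or below -1 with an adjusted p under 0.05, by edgeR's quasi-likelihood test over all genes) in DMSO at 1% oxygen against baseline, a comparison in which 0.599% of all genes passed as higher and 0.231% as lower. At an adjusted p under 0.05 without the fold threshold, 10 were higher and 4 lower against 14.1% and 13.9% of all genes, and their median log2 fold change was 0.06. CA9, which encodes the carbonic anhydrase most used as a hypoxia marker, read 12.2, 11.05 and 11.7 CPM in the 3 baseline libraries, 11.6, 14.96 and 9.58 CPM in the 3 libraries of hypoxia alone and 9.84, 13.5 and 5.38 CPM in the 3 of the combined treatment. VEGFA, the angiogenic growth factor, read 53.9, 52.96 and 53.4 CPM at baseline and 38.98, 41.8 and 35.3 CPM in hypoxia alone, a log2 change of -0.47 (adjusted p = 1.7e-05). Other targets were higher in every library of hypoxia alone, among them NDRG1 (0.48), EGLN3 (0.53) and DDIT4 (0.46), and the summed level of the list ran from 4454 to 5097 CPM against 4189 to 4330 CPM at baseline. The HIF targets thus moved unevenly in the libraries labelled hypoxia, with no member raised past the fold threshold, and every direction below follows the labels. PRMT5 itself, whose enzyme is inhibited rather than its mRNA, read 64.8, 64.8 and 65.9 CPM at baseline and 75.1, 68.3 and 72.6 CPM under the combined treatment (0.15 log2, adjusted p = 0.0084), so its level is no check of the drug, and higher and lower with onametostat mean higher and lower in the libraries labelled as treated.

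The combined treatment raised 359 genes (2.44% of those tested) and lowered 810 (5.51%), and 339 and 815 without the shallow library, with 329 and 791 shared. Onametostat alone gave 259 higher (1.76%) and 639 lower (4.35%) DEGs, and hypoxia alone 88 and 34. These 3 comparisons share the baseline libraries. CPM are shares of a library, so a change in the share of cells in some state and a change in RNA per cell cannot be told apart. The 1169 DEGs of the combined treatment were divided by what each single treatment did in the same direction at an adjusted p under 0.05. Most of them, 737 genes (200 higher, 537 lower), were moved that way by onametostat only. Both treatments moved 177 genes (63 higher, 114 lower) in the joint direction, hypoxia only moved 46 (30 higher, 16 lower), and neither did for 156 (59 higher, 97 lower). In the remaining 53 genes (7 higher, 46 lower), called opposed, at least one single treatment moved the gene against the joint direction. Without the shallow library these classes held 735, 192, 43, 130 and 54 genes, and 703, 173, 40, 122 and 52 genes kept their class.

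**Figure D1:**
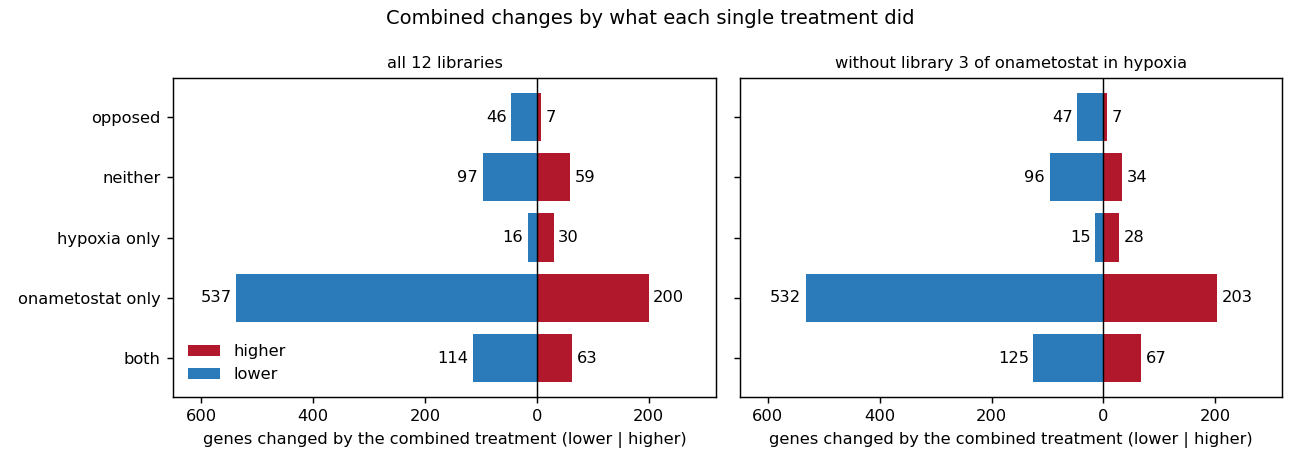
Number of genes changed by the combined treatment against DMSO in normoxia (horizontal axis, genes lower to the left in blue and higher to the right in red), by which single treatment moved the gene in the same direction (rows), with all 12 libraries and without library 3 of the combined condition. The class moved by onametostat only is the largest in both panels, with 737 and 735 genes, and the higher genes moved by neither fall from 59 to 34.

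Histone genes were prominent among the genes that both treatments raised. A list of 18 genes of the H2A, H2B and H1 families was used, of which 6 were not in the table. It was chosen with earlier results of these data known, so its counts are descriptive. Of the 12 measured genes, 8 rose under the combined treatment and none fell (2.44% and 5.51% of all genes). The median log2 fold change over the 12 was 1.55 (1.57 without the shallow library) against -0.01 over all genes. The same 12 had medians of 1.18 with onametostat alone and 0.54 with hypoxia alone, and 7 of the 8 were moved by both. H2BC12, which encodes a core histone of the H2B family, read 2.65, 2.52 and 1.92 CPM at baseline, 5.63, 3.25 and 4.93 CPM in hypoxia, 11.1, 10.98 and 10.5 CPM with onametostat and 18.6, 17.4 and 18.8 CPM with both. The combined libraries lay above all others, at 7.59 times the baseline (2.92 ± 0.18 log2, SE, n = 3 against 3, adjusted p = 1.1e-09, edgeR). H2BC5, another H2B gene, read 4.61, 3.71 and 4.98 CPM at baseline, 7.11, 5.71 and 6.81 CPM in hypoxia, 11.9, 9.68 and 10.4 CPM with onametostat and 16.7, 14.3 and 10.8 CPM with both (1.86 ± 0.14 log2, adjusted p = 1.5e-08). Its joint change was equal to the sum of the single changes (1.86, 95% interval of the difference -0.38 to 0.38), and the shallow library, at 4 counts, lay within the range of onametostat alone. H1-2, a linker histone gene, read 6.57, 6.57 and 6.42 CPM at baseline, 12.1, 9.50 and 11.3 in hypoxia, 14.7, 14.98 and 15.6 with onametostat and 21.3, 19.8 and 13.5 with both. The shallow library, at 5 counts for H1-2, was the one of the combined libraries below those of onametostat alone, and the joint change was 1.65 ± 0.11 log2 (adjusted p = 2.7e-09). H2BC11 rose by 1.98 and H2BC21 by 2.42, the latter below its change with onametostat alone (2.7). The joint change lay under the sum of the single changes in 11 of the 12 genes, against 48.5% of all genes. The median departure was -0.26 against 0.01 over all genes, but in none of the 12 was that departure called. Replication-dependent histone mRNAs normally lack the poly(A) tail on which the library kit selects, so the levels of H2A, H2B and H1-2 transcripts are those of the tailed fraction, and reads of these near-identical genes can be shared.

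The promoters of the histone genes are shown because these genes moved together. The 150 bases upstream of the annotated start were taken from RefSeq (GRCh38.p14), in the direction of transcription, for 4 of the 8 genes that rose. Capitals mark CCAAT or its reverse complement ATTGG, and TATAAA or its reverse complement TTTATA, searched on both strands. CCAAT and TATA boxes are known elements of core and linker histone promoters.
H2BC5, chr6:26157971-26158120, plus strand: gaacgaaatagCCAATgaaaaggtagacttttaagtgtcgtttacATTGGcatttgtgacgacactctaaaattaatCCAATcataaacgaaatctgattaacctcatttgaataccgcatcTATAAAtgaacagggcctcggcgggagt
H1-2, chr6:26056471-26056620, minus strand: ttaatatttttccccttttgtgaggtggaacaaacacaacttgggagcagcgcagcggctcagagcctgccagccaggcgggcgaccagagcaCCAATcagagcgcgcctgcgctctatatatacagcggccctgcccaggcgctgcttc
H2BC12, chr6:27146859-27147008, minus strand: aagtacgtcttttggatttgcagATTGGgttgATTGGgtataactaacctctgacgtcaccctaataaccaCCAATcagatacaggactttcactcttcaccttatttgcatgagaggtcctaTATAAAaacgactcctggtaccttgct
H2BC21, chr1:149886683-149886832, minus strand: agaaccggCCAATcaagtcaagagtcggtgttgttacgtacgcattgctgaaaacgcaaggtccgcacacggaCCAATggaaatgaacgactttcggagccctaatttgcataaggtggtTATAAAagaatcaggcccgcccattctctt
H2BC5 and H2BC12 had 3 matches of the first motif and 1 of the second, and H2BC21 had 2 and 1. H1-2 had 1 and 0, in a search for these exact strings that leaves out variants of them. H2BC5 and H2BC12 have 2 annotated starts, of which the first listed was used. Over the 7 of these 8 genes with an entry, all had the first motif and 5 had the second. Among 35116 annotated promoters, 23.5% held the first motif in a window of this length, 6.71% the second, and 1.64% both. Histone genes that did not rise were not searched separately, so these shares cannot set the risen genes apart from other histone genes. The promoters of H2BC4 and H2AC6, a divergent pair, overlap and are not independent.

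Beyond the histones, the higher genes moved by both treatments included genes of adhesion, matrix and inflammation. ITGA2, the collagen-binding integrin alpha 2, read 43.4, 36.2 and 40.8 CPM at baseline, 93.1, 59.7 and 73.1 in hypoxia, 83.1, 84.6 and 89.97 with onametostat and 142, 99.4 and 126 with both. The combined libraries lay above the others, at 3.11 times the baseline (1.64 ± 0.14 log2, adjusted p = 7.5e-08). TNC, the matrix protein tenascin-C that is a known glioblastoma marker, read 99.5, 96.7 and 90.8 CPM at baseline, 143, 135 and 121 in hypoxia, 136, 130.3 and 131 with onametostat and 212, 207 and 180.3 with both (1.11 ± 0.06, adjusted p = 4.6e-10), from single changes of 0.47 with onametostat and 0.47 with hypoxia. CCL2, a chemokine that attracts monocytes, read 15.3, 13.7 and 13.1 CPM at baseline and 53.2, 29.4 and 26.9 with both (1.59, adjusted p = 1.8e-06), with single changes of 0.88 for onametostat and 0.71 for hypoxia. The groups did not overlap, but library 1 of the combined condition stood well above its replicates. AKAP6, an anchoring protein for kinase A, rose by 1.42 ± 0.10 log2 (from 11.8, 11.4 and 10.6 to 29.7, 30.8 and 29.6 CPM), and AKR1B1, the aldose reductase, by 1.34 ± 0.14. NR1D1, the circadian repressor REV-ERB alpha, rose by 1.30 ± 0.11, and TGFBR3, the TGF-beta co-receptor betaglycan, by 1.46, although the latter had 1 count in the shallow library. GDF15, a stress-induced cytokine, rose by 1.03 ± 0.13 from 7.53, 7.21 and 8.95 CPM to 16.2, 16.7 and 2.69 CPM, so the shallow library, at 1 count, fell below the baseline, and SNHG9, a snoRNA host gene, rose by 1.16. CALB2, the calcium-binding protein calretinin, rose by 1.34 ± 0.18 (adjusted p = 9.5e-06) from single changes of 0.37 (adjusted p = 0.063) and 0.59, and it changed class between the fits, from hypoxia only to both.

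The lower genes of this class included genes of DNA synthesis and amino acid metabolism. CDCA7, a MYC and E2F target that recruits a chromatin remodeller, read 145, 150.1 and 150.4 CPM at baseline, 86.95, 101 and 85.1 in hypoxia, 73.6, 65.97 and 72.1 with onametostat and 43.1, 48.8 and 34.98 with both. Each condition lay in its own range, and the joint change of -1.72 ± 0.08 (adjusted p = 4.3e-11) differed from the sum of -1.78 by 0.06 (95% interval -0.15 to 0.26). PTPRN, a secretory granule protein of the receptor-type phosphatase family, gave a joint change of -1.43 ± 0.10 against a sum of -1.42, from 39.1, 41.6 and 39.8 CPM at baseline to 14.7, 15.3 and 13.5 CPM. PSAT1, the second enzyme of serine synthesis, read 119, 120.0 and 122 CPM at baseline, 77.9, 77.1 and 77.1 in hypoxia, 71.1, 78.2 and 77.2 with onametostat and 56.6, 58.8 and 67.3 with both (-1.06 ± 0.04, adjusted p = 2.7e-11). Its single changes were of like size (-0.67 and -0.64). DHFR2, the mitochondrial paralog of dihydrofolate reductase, fell by a log2 change of -1.34 and shares sequence with its paralog. In other members the change with onametostat alone was much the larger of the single changes. GINS4, a subunit of the replicative helicase, fell to 18.8, 16.3 and 13.5 CPM from 56.5, 56.8 and 56.2 (joint -1.67, onametostat -1.60, hypoxia -0.35). RRM2, the small subunit of ribonucleotide reductase, went from 275, 264 and 260.3 CPM at baseline to 226, 228 and 222 in hypoxia, 109, 104 and 106 with onametostat and 106, 106 and 118 with both, so the combined libraries overlapped those of onametostat alone. The nuclear RNA NEAT1, the scaffold of paraspeckles, fell from 194, 217 and 249.0 CPM to 63.5, 62.3 and 51.1 CPM (joint -1.82, onametostat -1.61, hypoxia -0.53). The joint log2 changes were -1.63 for PYCR3, an enzyme of proline synthesis, -1.34 for FANCL, the ubiquitin ligase of the Fanconi pathway, -1.42 for ZRANB2, a splicing factor, and -1.77 for P2RX6, an ATP-gated channel subunit with no count in the shallow library. FGFR3, a fibroblast growth factor receptor, gave -1.31 ± 0.16 (from 9.01, 10.3 and 8.95 to 3.62, 4.38 and 2.69 CPM), and SFXN2, a mitochondrial carrier of the sideroflexin family, -2.69.

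**Figure D2:**
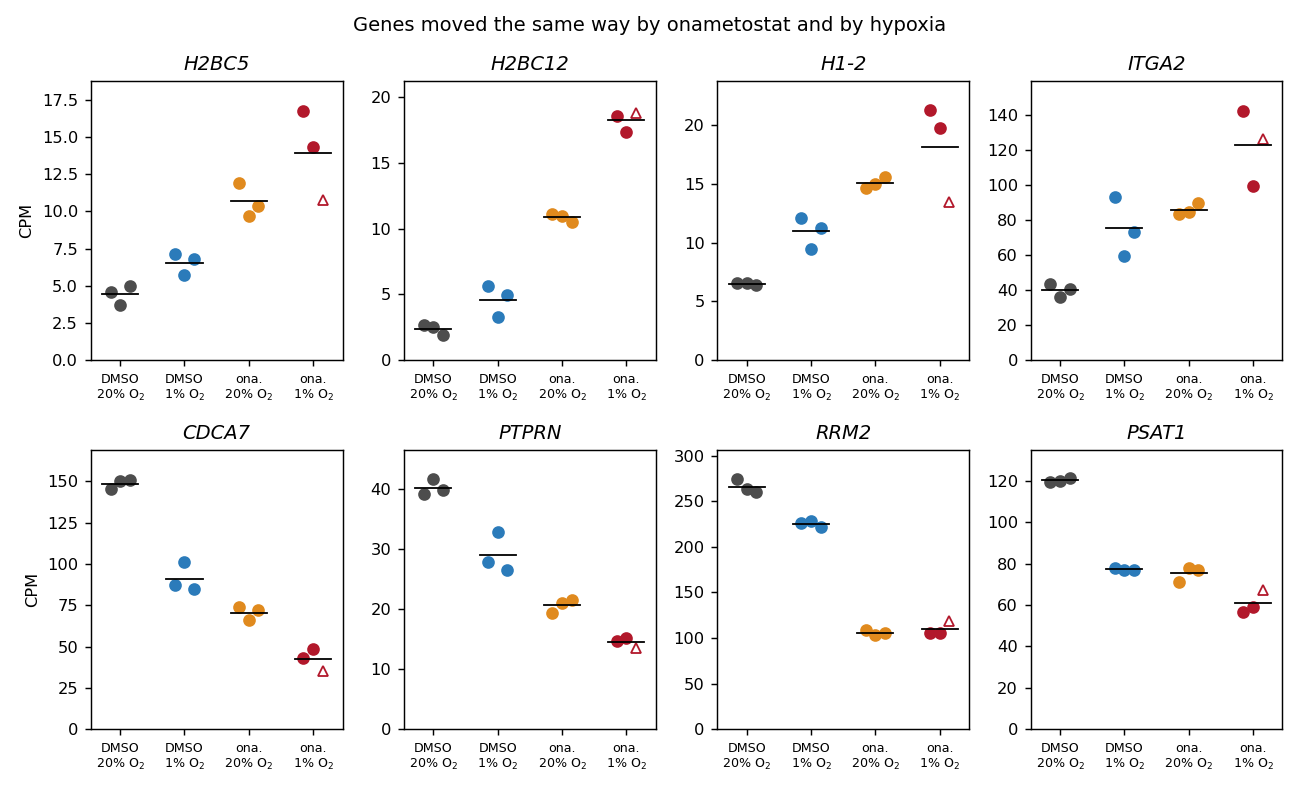
Level in CPM (vertical axes, from 0) of 8 genes moved the same way by onametostat (ona.) and by hypoxia, in the 12 libraries (points) by condition, with lines at the means and an open triangle for library 3 of onametostat in hypoxia. H2BC12 rises in steps to 17.4 or more in the combined libraries and CDCA7 falls in steps to 48.8 or less, while RRM2 is near its level with onametostat alone.

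Most of these genes did not exceed the larger of their single changes by the test. Of the 177 genes moved by both treatments, 51 (21 higher, 30 lower) differed in the joint direction from onametostat alone and from hypoxia alone, each at an adjusted p under 0.05 (59 of 192 without the shallow library, 49 shared), and these counts fell to 30 without library 2 of DMSO in normoxia and to 20 without library 1 of the combined condition. The sum of the single changes was itself past 1 in the joint direction in 168 of the 177. The class held 103 genes without library 2 of DMSO in normoxia.

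Genes moved by onametostat only made up 63.0% of the joint DEGs. CXCL8, the neutrophil chemokine interleukin-8, read 3.61, 3.91 and 5.20 CPM at baseline, 4.14, 3.72 and 3.92 in hypoxia, 15.3, 16.2 and 13.8 with onametostat and 16.4, 14.1 and 10.8 with both (1.88 ± 0.13 log2, 3.67 times, adjusted p = 7.8e-09). Its change was 1.86 with onametostat alone and -0.11 with hypoxia alone (adjusted p = 0.58). Of 22 inflammatory genes of the NF-kB and IL-17 programmes, 8 rose and none fell with the combination, against 2.44% and 5.51% of all genes (CXCL8, CCL2, IL1B, IL11, IL18, ICAM1, MMP3 and IRAK2), with a median of 0.41 over the list (0.36 without the shallow library). Of these, CCL2 and ICAM1 were moved by both treatments and MMP3, a matrix protease, fell with hypoxia alone. ICAM1, an adhesion molecule for leukocytes, rose by 2.69 ± 0.28 from 0.653, 0.524 and 0.306 CPM, a low level, and IRAK2 is one of the genes raised in the shallow library. Some splicing regulators were also higher. PTBP2, the neuronal paralog of the splicing repressor PTBP1, read 15.3, 14.7 and 15.4 CPM at baseline, 15.7, 14.2 and 14.7 in hypoxia, 37.3, 34.04 and 39.02 with onametostat and 36.9, 37.2 and 43.05 with both (1.30 ± 0.08, adjusted p = 1.0e-09). PRPF39, a U1 snRNP factor, rose by 1.27 and PRPF4B, a spliceosomal kinase, by 1.14, each within 0.1 of its change with onametostat alone. Of 55 spliceosomal genes 7 rose and none fell (5 and none without the shallow library, and 2.44% and 5.51% of all genes), 4 of the 7 moved by onametostat only, with a median of 0.27 against -0.01 over all genes. PRPF3 and PRPF38B were also called, as was U2AF1, a subunit of the U2 auxiliary factor with a near-identical second locus that belongs to the opposed class because it fell with hypoxia alone (-0.39), while RBM17 and SFSWAP passed only with the shallow library.

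Lower genes moved by onametostat only included enzymes of mitochondrial metabolism and of the synthesis of GPI anchors. ETHE1, the sulfide-oxidising dioxygenase, fell by a log2 change of -1.73, SLC25A10, the dicarboxylate carrier, of -1.73, and PCK2, mitochondrial PEP carboxykinase, of -1.68. CAT, which encodes catalase, went from 44.04, 40.8 and 41.98 CPM to 15.2, 12.6 and 8.07 CPM (-1.58 ± 0.09, adjusted p = 8.3e-10) against 0.00 with hypoxia alone. Of 24 genes of GPI anchor synthesis 6 fell and none rose, against 5.51% and 2.44% of all genes (PIGF, PIGP, PIGQ, PIGV, PIGZ and PGAP2), with PIGQ at -1.5 and PIGV at -1.45, although PGAP2 also fell with hypoxia alone and PIGZ rose with it. Of 39 lysosomal hydrolases 3 fell (among them ARSA -1.34 and IDUA -1.09) and CTSK rose (1.16), counts near the background of 5.51% lower and 2.44% higher. CDKN1A, the p21 inhibitor of cyclin-dependent kinases, fell from 18.3, 16.6 and 18.2 CPM to 7.72, 9.43 and 2.69 CPM (-1.11 ± 0.12, adjusted p = 4.8e-07). Of 25 p53 targets and inhibitors of cyclin-dependent kinases 3 fell and none rose (5.51% and 2.44% of all genes), the others being TP53I3, a quinone oxidoreductase (-1.12), and XPC, a DNA damage sensor (-1.09). The list did not fall as a whole. Without the fold threshold 9 of the 25 were higher and 8 lower (25.1% and 26% of all genes), with a median of 0.05. RETSAT, retinol saturase, gave -1.02 and MVD, of cholesterol synthesis, -1.05. At low levels, under 5 CPM at baseline, SEMA6C, a semaphorin, gave -1.51, KREMEN2 and TLE2, both of the Wnt pathway, -1.33 and -1.22, ID4, an inhibitor of helix-loop-helix factors, -1.16, and AMH, a TGF-beta family hormone, 1.18. Among genes whose average log2 CPM was 3 or more and whose groups did not overlap, the 2 with the lowest joint change were LINC02593, a long noncoding RNA, with -3.01 ± 0.24 (from 16.1, 16.4 and 22.3 to 2.51, 1.73 and 0 CPM), and the unnamed gene ENSG00000272405 with -2.74 ± 0.23 (from 17.3, 21.3 and 20.6 to 2.75, 3.59 and 0 CPM). Neither had a count in the shallow library, where 3 counts would read 8.07 CPM. LINC02593 belongs to the opposed class, since hypoxia alone raised it by 0.42. PGGHG, a glucosidase that acts on hydroxylysine-linked sugars of collagen, fell by a log2 change of -2.08, C1RL, a complement protease-like gene, of -1.96, and LRRCC1, a centrosomal protein, of -1.82.

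The 46 genes moved by hypoxia only were mostly expressed at low levels (median average log2 CPM 0.34). PDGFRA, a receptor of platelet-derived growth factor that is central to one group of glioblastomas, read 0.348, 0.333 and 0.437 CPM at baseline, 1.53, 1.30 and 1.5 in hypoxia, 0.221, 0.426 and 0.603 with onametostat and 0.965, 1.73 and 0 with both (1.67 ± 0.37, adjusted p = 0.0014). CYP27C1, a vitamin A desaturase, gave a joint change of 1.47 against 1.83 in hypoxia alone, and NTRK3, a neurotrophin receptor, -1.25 against -1.02. The endothelial marker VWF, near 1 CPM, gave -1.21 against -0.73.

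Genes that passed only when both treatments acted numbered 156, and the shallow library carried the abundant ones. Of these 156 genes, 21 had an average log2 CPM of 3 or more, and 21 were among the 53 genes raised in the shallow library. Without that library the class held 130 genes, none of them at an average log2 CPM of 3 or more. RPL4P5, a processed pseudogene of a ribosomal protein whose reads may belong to its parent, read 3.26, 2.76 and 2.88 CPM at baseline and 1.88, 0.930 and 22603 CPM with both. Its fitted change went from 11.29 to -0.87 without the shallow library. ZBTB7A, a transcriptional repressor, read 75.7, 69.9 and 4238 CPM with both (4.13, and 0.26 without the library). The unnamed gene ENSG00000275807 had 0.241, 0.399 and 4028 CPM with both, and its change went from 11.17 to -0.53. SBF1, a myotubularin family protein, went from 3.33 to 0.15, NUDC, a dynein co-chaperone, from 3.09 to 0.12, and the ribosomal protein gene RPL27 from 2.85 to 0.02. GPX4, the lipid peroxidase that guards against ferroptosis, turned from 2.36 to -0.30 (adjusted p = 6.9e-06), and PLXNB2, a semaphorin receptor, from 2.53 to -0.54. The splicing factors RBM17 and SFSWAP went from 2.38 to -0.08 and from 1.26 to 0.71, and COX8A, a subunit of cytochrome oxidase, from 1.5 to 0.11. In all, 30 of the 359 higher DEGs were lost without that library, 21 of them among its 53 raised genes. The part of depth and of library handling in these levels was not tested. The 122 genes that kept the class in both fits (32 higher, 90 lower) all had an average log2 CPM under 3, taken over all 12 libraries. None of the class departed from the sum of the single changes by the test in either fit. In 114 of the 156, neither single treatment had even an unadjusted p under 0.05.

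The sum of the single changes was then compared with the joint change in each gene. The departure is the joint log2 fold change minus the sum of the onametostat and hypoxia changes, so that 0 means the fold changes multiply. Among all 1169 DEGs the departure lay within 0.25 of 0 in 45.9% and within 0.5 in 70.7%, with a median half-width of its 95% interval of 0.78. Among the 268 DEGs with an average log2 CPM of 3 or more, the departure lay within 0.25 of 0 in 72.4% and within 0.5 in 88.8% (79.0% and 96.0% of 248 without the shallow library), and the median half-width was 0.29. A departure passed an adjusted p under 0.05 in 73 of the 14698 genes (0.497%), 33 higher and 40 lower than the sum, and 1937 genes had an unadjusted p under 0.05. Only 3 of the 73 were joint DEGs, and 57 of the 73 went against the direction of the sum, which means that the joint change was smaller than the sum or turned. These counts depended on single libraries. Without the shallow library they were 97 and 86, all 73 among them, and without library 1, 2 or 3 of DMSO in normoxia they were 0 and 1, 0 and 2, and 0 and 4. They were 29 and 39, 4 and 16, and 0 and 4 without library 1, 2 or 3 of DMSO in hypoxia. Without library 1, 2 or 3 of onametostat in normoxia they were 0 and 2, 2 and 5, and 10 and 28, and leaving out library 1 or 2 of the combined condition gave 0 and 2, and 16 and 29. Among the 183 calls without the shallow library, 9 were joint DEGs and 146 went against the direction of the sum. In 4 of the 9, moved by onametostat only, and in 2 opposed genes the departure had the joint direction. In the 3 moved by both treatments it went against the joint direction.

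**Figure D3:**
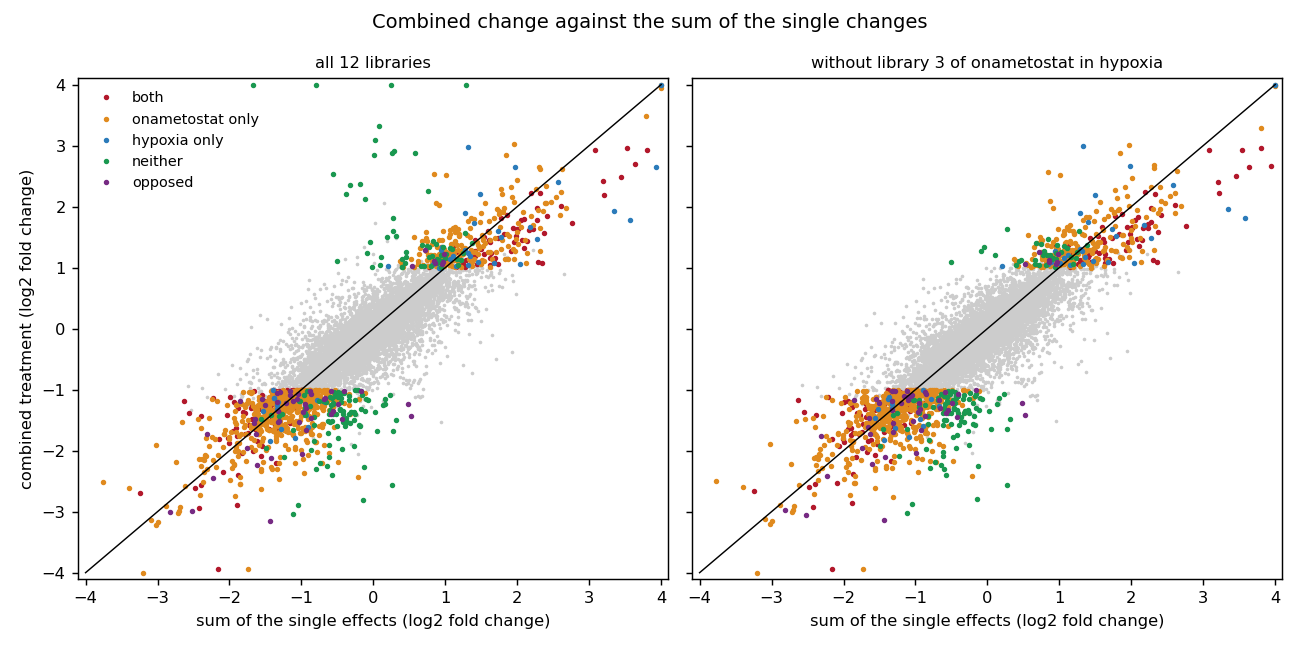
Joint log2 fold change of each gene (vertical axis) against the sum of its single log2 fold changes (horizontal axis), with all 12 libraries and without library 3 of the combined condition. Grey points are genes that are not joint DEGs, colours give the class of the DEGs, the line marks equality, and values beyond 4 are drawn at 4. The green points high above the line with all libraries, genes moved by neither single treatment, are absent in the right panel.

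NDRG1 gave the departure with the lowest p and kept it in all 12 fits that left out 1 library. It is a stress-responsive gene and a known HIF target, and read 619, 649.6 and 646 CPM at baseline, 920.1, 920.3 and 834 in hypoxia, 723, 783 and 677 with onametostat and 609.6, 653 and 589 with both. Hypoxia alone raised it, the combined libraries overlapped those of the baseline, and the departure was -0.71 (95% interval -0.88 to -0.54, adjusted p = 0.0014, and 1.5e-04 without the shallow library). IGFBP4, a secreted binding protein of insulin-like growth factors, followed the same course, with 102, 103 and 99.98 CPM at baseline, 134, 138 and 136 in hypoxia, 106, 114 and 106 with onametostat and 100.2, 110.0 and 108 with both (-0.46, -0.59 to -0.34, adjusted p = 0.0059, called in 9 of the 12 fits). SGK1, a serum- and glucocorticoid-induced kinase, read 12.8, 12.8 and 11.9 CPM at baseline, 19.9, 20.2 and 22.1 in hypoxia, 13.2, 13.1 and 13.2 with onametostat and 13.7, 11.03 and 2.69 with both. Its lowest value was 1 count in the shallow library, and the departure of -0.81 was called in 4 of the 12 fits. In STC1 and MT2A each treatment alone raised the gene and the joint change was near that of the larger single change. STC1, a secreted glycoprotein hormone, read 113, 119 and 115 CPM at baseline, 182, 166 and 157 in hypoxia, 157, 174 and 157 with onametostat and 160.3, 174 and 156 with both, a departure of -0.51 (adjusted p = 0.026, 7 of 12 fits). MT2A, a metal-binding metallothionein with near-identical family members, read 158, 165 and 164 CPM, 201, 221 and 221 CPM, 251, 233 and 238 CPM and 225, 243 and 188 CPM in the same order (-0.48, adjusted p = 0.026, 6 of 12 fits). SEMA4B, a semaphorin, departed by -0.48, and ANTXR1, a collagen-binding anthrax toxin receptor, by -0.33 (5 and 3 of the 12 fits). THRAP3, a factor of splicing and transcription, was the one of these departures that neither single treatment moved (-0.01 with onametostat and 0.00 with hypoxia) and the combination raised, from 226, 229 and 227 CPM at baseline to 303, 299 and 261 CPM. Its departure of 0.38 (0.24 to 0.52, adjusted p = 0.026, 9.4e-04 without the shallow library) was called in 4 of the 12 fits and its joint change of 0.37 is below the fold threshold. HJURP, the chaperone of the centromeric histone CENP-A, departed by 0.32 and ATIC, an enzyme of purine synthesis, by 0.37 (5 and 1 of the 12 fits).

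**Figure D4:**
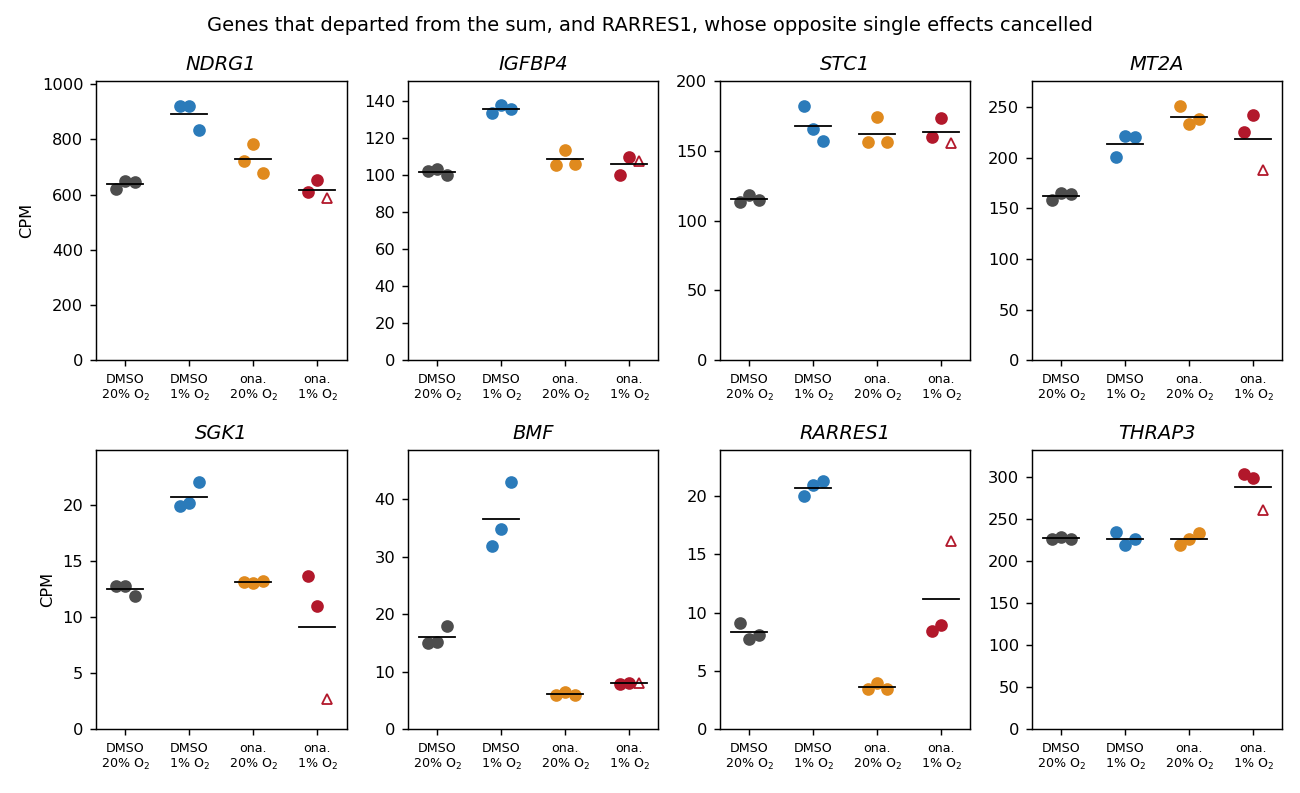
Level in CPM (vertical axes, from 0) of 7 genes whose joint change departed from the sum of the single changes, and of RARRES1, in the 12 libraries (points) by condition, with lines at the means and an open triangle for library 3 of onametostat in hypoxia (ona., onametostat). NDRG1 and IGFBP4 are highest with hypoxia alone, and RARRES1 returns to its baseline level in the 2 deeper combined libraries.

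Among the HIF target genes the departure lay below 0 in 28 of 31 (28 of 31 without the shallow library), against 48.5% of all genes, with a median of -0.23 against 0.01. It was called in 4 of the 31, all lower than the sum, against 0.497% of all genes in either direction. Without the shallow library it was called in 7, all lower. The called genes besides NDRG1 are named after their values were seen. Their calls were not followed through the fits that left out 1 library. Over all genes, departures below the sum numbered from 1 to 86 in those fits. DDIT4, an inhibitor of mTORC1, read 77.3, 81.3 and 90.3 CPM at baseline, 112, 117 and 113 in hypoxia, 107, 116 and 100.1 with onametostat and 102, 108 and 110.3 with both, a departure of -0.50 (adjusted p = 0.026). The single conditions and the combination overlapped, all above baseline. PPP1R3C, a glycogen-targeting subunit of protein phosphatase 1, read 13.4, 15.6 and 12.3 CPM in hypoxia and 6.61, 9.43 and 5.38 CPM with both (-1.03, adjusted p = 0.026), and DEPP1, a FOXO-regulated gene, 5.93, 6.84 and 4.91 CPM and 2.80, 4.38 and 0 CPM (-1.22, adjusted p = 0.041). EGLN3, the HIF prolyl hydroxylase that is itself a HIF target, read 46.5, 46.96 and 48.3 CPM at baseline, 73.3, 66.7 and 65.3 in hypoxia and 47.3, 49.1 and 29.6 with both, a departure of -0.38 with an adjusted p of 0.057 (0.022 without the shallow library). The one HIF target that was a joint DEG was MIR210HG, the host transcript of a hypoxia-induced microRNA, which fell from 11.5, 12.9 and 12.7 CPM to 5.50, 4.65 and 2.69 CPM (-1.26 ± 0.22, adjusted p = 7.3e-05) with single changes of -0.38 and 0.04. ENO2, the neuronal enolase of the glycolysis list, fell from 77.9, 77.6 and 76.4 CPM to 35.8, 39.5 and 56.5 CPM (-1.03 ± 0.08, adjusted p = 1.3e-08), beyond either single change (-0.53 and -0.09). Its departure, lower than the sum, was called without the shallow library but not with all libraries. ADM, the vasodilator adrenomedullin, changed by -0.60 (adjusted p = 7.9e-07) and KDM3A, a histone demethylase, by 0.36 (adjusted p = 2.4e-06). The joint log2 changes of BNIP3, a mitophagy receptor, PDK1, which restrains pyruvate dehydrogenase, and SLC2A1, the glucose transporter GLUT1, were -0.16, 0.11 and 0.08, with adjusted p of 0.11, 0.16 and 0.18.

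In 1474 of the 14698 genes the single treatments had opposite effects at an adjusted p under 0.05 (1768 without the shallow library, 1465 shared). That number ran from 908 to 1768 when 1 library was left out. Of the 1474, 51 were joint DEGs (2.44% of all genes were higher and 5.51% lower). A departure from the sum was called in 23 of them (0.497% of all genes). RARRES1, a retinoic acid-induced gene, read 9.14, 7.69 and 8.08 CPM at baseline, 19.97, 20.9 and 21.2 in hypoxia, 3.43, 3.98 and 3.43 with onametostat and 8.39, 8.90 and 16.1 with both. The single changes of 1.33 and -1.16 cancelled, leaving 0.08 ± 0.12 (adjusted p = 0.60) and a departure of -0.09 (95% interval -0.41 to 0.24). BMF, a pro-apoptotic member of the BCL-2 family, did not balance. It read 15.1, 15.2 and 17.9 CPM at baseline, 31.9, 34.8 and 43.1 in hypoxia, 5.97, 6.46 and 5.94 with onametostat and 7.81, 8.10 and 8.07 with both. The combined libraries lay between those of onametostat alone and the baseline, the joint change of -1.01 ± 0.15 (adjusted p = 1.5e-05) lay just past the fold threshold, and the departure was -0.84 (-1.23 to -0.46, adjusted p = 0.049, called in 2 of the 12 fits). VEGFA belonged to this pattern, with 0.56 under onametostat, -0.47 under hypoxia and -0.06 under both. The remaining genes named by rule were near or under 1 CPM at baseline. NPIPB11, from a segmentally duplicated family, gave 0.68 from 1.28 and -1.28, the pseudogene ZBED10P 0.67 from -1.22 and 1.70, and the unnamed genes ENSG00000254363 and ENSG00000276564 0.67 and 0.06.

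The remaining gene lists moved by less than the fold threshold or in few members. Of 43 genes of DNA replication and the G1/S transition 4 fell and none rose (GINS4, RRM2, CCNE2 and POLA2), against 5.51% and 2.44% of all genes, and without the fold threshold 28 were lower and 5 higher (median -0.38), against 26% and 25.1% of all genes. CCNE2, the cyclin E2 gene, went from 34.03, 30.98 and 32.7 CPM to 15.5, 14.9 and 8.07 CPM (-1.11). Their departure lay below 0 in 3 of the 43, against 48.5% of all genes, with a median of 0.14 against 0.01. Few were below 0 in some other lists too, with 5 of 55 spliceosomal genes and 3 of 30 of homologous recombination and Fanconi repair. The HIF targets, with 28 of 31 below 0, went the other way. The median changes of the replication genes were -0.34 with onametostat alone and -0.15 with hypoxia alone. Of 18 genes of the Sm proteins and their assembly into snRNPs 10 were higher and 2 lower without the fold threshold (25.1% and 26% of all genes), with no DEG. Their median was 0.17, and -0.15 with hypoxia alone. Genes of G2 and mitosis went the other way from those of DNA replication, 23 higher and 7 lower of 40 without the fold threshold (25.1% and 26% of all genes). They had no DEG and a median of 0.20. For MHC class I antigen presentation 14 of 17 genes were lower and 1 higher without the fold threshold (26% and 25.1% of all genes), with a median of -0.37 and none by more than 1. HLA-B, a class I heavy chain, went from 335, 341 and 328 CPM at baseline to 343, 382 and 384 in hypoxia, 216, 232 and 216 with onametostat and 217, 229 and 194 with both (-0.62, adjusted p = 1.6e-07). With onametostat alone it was -0.60, and reads of the class I genes can be shared. Of 29 interferon-response genes 13 were lower and 2 higher without the fold threshold (median -0.38), against 26% and 25.1% of all genes, with no DEG (1 lower without the shallow library). Serine and one-carbon metabolism had 3 DEGs of 15, all lower (PSAT1, PCK2 and SFXN2), against 5.51% lower and 2.44% higher of all genes. The 75 cytosolic ribosomal proteins and 61 nuclear-encoded respiratory subunits had medians of 0.07 and 0.03. The 15 mitochondrially encoded transcripts had a median of -0.27 with both (-0.14 without the shallow library) against -0.65 with hypoxia alone. Of them 5 were lower and none higher at an adjusted p under 0.05 (3 and none without the shallow library), against 26% and 25.1% of all genes.

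**Figure D5:**
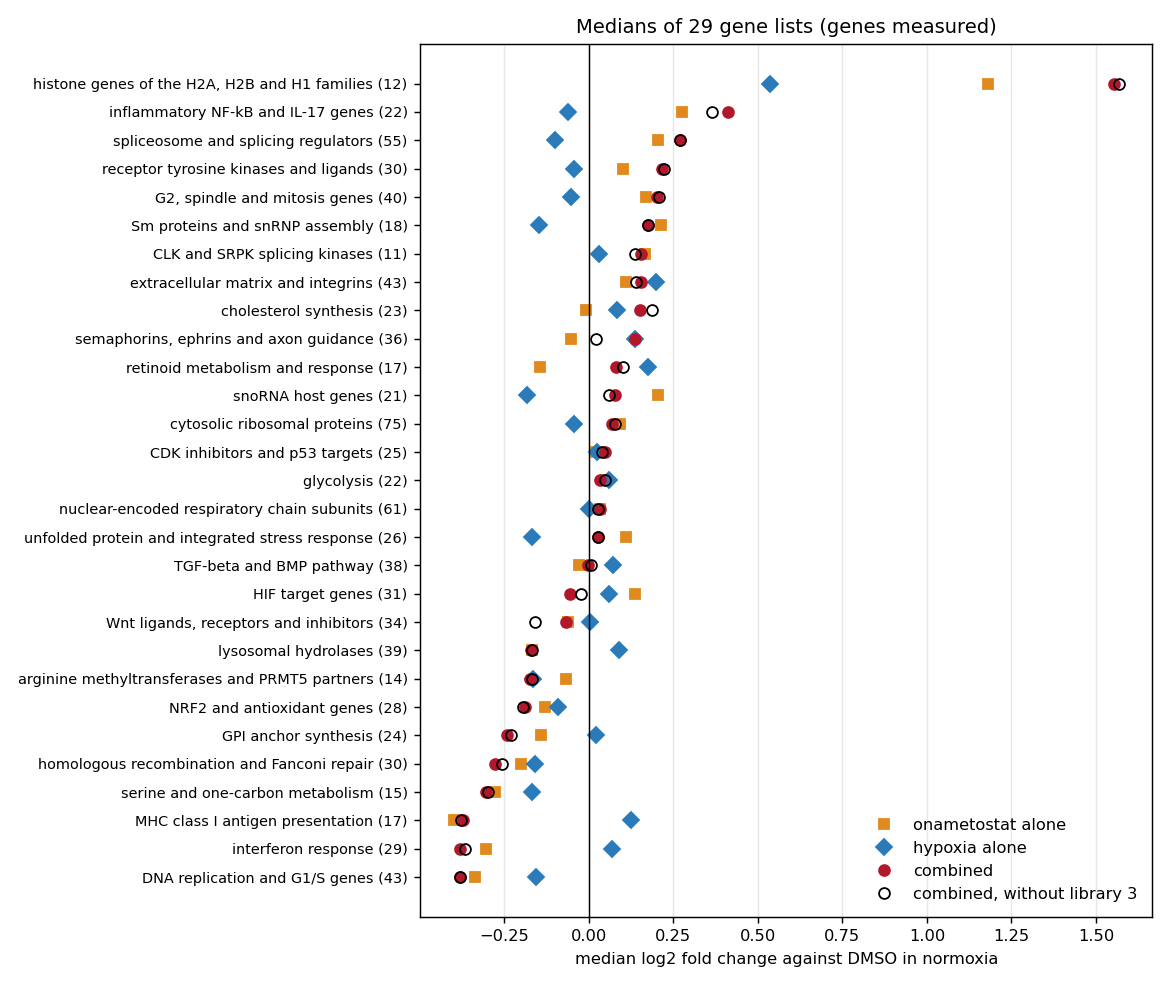
Median log2 fold change against DMSO in normoxia (horizontal axis) of 29 gene lists (rows, with the number of genes measured), for onametostat alone, hypoxia alone and the combined treatment with and without library 3. The 3 comparisons share the baseline libraries. Histone genes stand at 1.55 for the combined treatment, and DNA replication genes lie at -0.38.

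Seen from each single treatment, adding the other moved unequal numbers of genes. Against hypoxia alone the combined libraries differed in 305 higher (2.08%) and 799 lower (5.44%) DEGs (286 and 805 without the shallow library). Against onametostat alone they differed in 61 (0.415%) and 46 (0.313%), or 51 and 48 without the shallow library, and 14 of the 61 were lost without the shallow library, all among its 53 raised genes. The counts against onametostat alone were 29 and 25 without library 1 of the combined condition, the deepest of its 3 libraries.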

How the data were processed

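RNA of T98-G cells (12 libraries, 4 conditions of 3) was prepared by the authors with a stranded poly(A)-based mRNA kit and sequenced, and the reads were trimmed, aligned with STAR and assigned to genes with featureCounts at default settings, which do not use the strand. The authors deposited 1 table of whole-number counts per gene, already without weakly expressed genes, and this is the unit used here. Per the submitters' processing notes the aligner was STAR 2.7.10a and the build GRCh37, while the study's methods name GRCh38. Of the gene IDs, 714 are newer than the last GRCh37 release of Ensembl, so no coordinates were drawn from the counts.

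Symbols were matched to 13708 of 14698 IDs through GENCODE 44 and the gene name table. Counts were TMM-scaled and fitted in edgeR 4.0.16 (R 4.3.3) by the quasi-likelihood test, 1 fit over the 4 conditions, with Benjamini-Hochberg adjustment over all genes. DEGs had a log2 fold change above 1 or below -1 at an adjusted p under 0.05. The departure from the sum is the interaction term and is called by its adjusted p alone. Errors are standard errors of the fit. Each fit was repeated without library 3 of onametostat in hypoxia. The average log2 CPM of a gene was taken over all 12 libraries for every fit. The library totals limit precision in that library, where 1 count is 2.69 CPM. Counting error alone was not used for intervals.

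Genes are named by rule. Among genes whose average log2 CPM was 3 or more and whose combined and baseline libraries do not overlap, the rule takes the 10 largest DEGs per direction, called in both fits, and up to 8 per direction moved by both treatments, or by neither, which gave none of the latter. It adds up to 10 departures by p called in either fit, up to 4 called members per list, 10 fixed genes, 6 genes with opposite single effects and 5 DEGs lost without library 3. A few genes that the rule names are not reported here. The members, lists and tests were chosen with earlier results of these data known. The steps were tested on simulated data. Alternatives were RLE size factors, library totals alone, a filter of 1 CPM in 3 libraries, DESeq2 1.42.0, limma 3.58.1 voom with quality weights, a likelihood ratio test, no fold threshold, a replicate block, removal of the genes in excess in library 3, of libraries 2 and 3 of that condition together, and of each library in turn. Promoter sequences are from RefSeq, GRCh38.p14.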

Additional observations from a re-analysis of the deposited data

Results flagged for a closer look

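Of the genes that the naming rule gives, 11 differed in their response to onametostat between oxygen levels, by the interaction test in edgeR at an adjusted p under 0.05 over all genes. The difference, the log2 change with onametostat in hypoxia minus that in normoxia, was -0.71 for NDRG1, -0.81 for SGK1, -0.46 for IGFBP4, -0.51 for STC1, -0.48 for MT2A, -0.48 for SEMA4B, -0.33 for ANTXR1 and -0.84 for BMF. In THRAP3, HJURP and ATIC it was 0.38, 0.32 and 0.37. DDIT4, PPP1R3C and DEPP1, named in the report after their values were seen, passed too, with -0.50, -1.03 and -1.22. NDRG1 passed in all 12 fits that left out 1 library, with values from -0.76 to -0.66, and the other 10 named by the rule in 1 to 9 of the 12. The groups hold 3 libraries each, so no library was tested as an outlier within its group.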

How the results depend on the processing

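The counts of DEGs for the combined treatment against baseline stayed within 1.5 times of 359 and 810 under every alternative except the removal of the fold threshold, which gave 3695 higher and 3819 lower genes. Leaving out each library in turn gave 245 to 371 and 638 to 819. Over all alternatives, 379 of the counts were within 1.5 times of their reported value and 83 were not, and the cause was not tested unless the alternative changes the threshold or the libraries used. Of the fitted changes of named genes, 2407 kept direction and side of the threshold, 61 lost the call, 9 gained it and 15 turned, and of the departures 152 were kept and 79 lost.

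Without the fold threshold, onametostat alone gave 3991 and 4311, hypoxia alone 2073 and 2036, and the combined treatment 1130 and 906 against onametostat alone and 3761 and 3884 against hypoxia alone. The classes then held 1114 (both), 4156 (onametostat only), 591 (hypoxia only), 832 (neither) and 821 (opposed), with 271 and 126 of the first and the fourth beyond each single treatment and 510 of the fourth at an average log2 CPM of 3 or more. DESeq2 gave 40 and 9 DEGs for hypoxia alone, 15 and 3 against onametostat alone, 200 higher against hypoxia alone and 77 departures above the sum. Its classes held 64 (both), 18 (hypoxia only) and 17 (opposed), with 22 of both and 6 of neither beyond each single treatment and 8 of neither at log2 CPM 3 or more. The filter of 1 CPM in 3 libraries left 15 lower genes for hypoxia alone and 85 genes moved by neither. With voom there were 16 lower genes against onametostat alone, 125 departures above the sum, and 9 and 0 genes of neither beyond each single treatment and at log2 CPM 3 or more. The likelihood ratio test gave 115 higher genes against onametostat alone, 66 and 85 departures, and 82 and 44 such genes of neither. Library totals alone gave 7 departures above the sum. Without the 53 genes raised in library 3 of the combined condition there were 90 and 89 departures and 0 genes of neither at log2 CPM 3 or more. Without libraries 2 and 3 of that condition, where the 1 library left is assumed to vary like those of the other groups, there were 61 departures below the sum, 25 genes of neither beyond each single treatment and 0 at log2 CPM 3 or more.

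Leaving out each library in turn, the DEGs against onametostat alone ran from 29 to 76 and 25 to 50, and departures from 0 to 97 above and 1 to 86 below the sum. The classes ran from 103 to 196 (both), 30 to 62 (hypoxia only) and 30 to 54 (opposed), those beyond each single treatment from 20 to 59 (both) and 22 to 47 (neither), genes of neither at log2 CPM 3 or more from 0 to 34, and genes with opposite single effects from 908 to 1768. Library 2 of DMSO in normoxia gave the low ends of both, opposed and opposite single effects. Library 1 of onametostat in hypoxia gave the low ends of the DEGs against onametostat alone, of hypoxia only and of both beyond each single treatment, and 34 genes of neither at log2 CPM 3 or more. Opposed held 35 genes without library 1 of DMSO in normoxia and 32 without library 3 of DMSO in hypoxia. Neither beyond each single treatment held 23 without library 1 of onametostat in normoxia.

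The genes that turned are among the 53 raised in library 3 of the combined condition. Under voom, without libraries 2 and 3, and without library 3, the joint change of RBM17 was -0.020, -0.12 and -0.084, of GPX4 -0.22, -0.29 and -0.30, of PLXNB2 -0.44, -0.53 and -0.54, and of RPL4P5 -0.66, -0.65 and -0.87. Without libraries 2 and 3 RPL27 gave -0.029 and ENSG00000275807 -0.77, and the latter gave -0.53 without library 3. Leaving out 1 library at a time, these changes ran from -0.084 to 3.31 (RBM17), -0.30 to 2.98 (GPX4), -0.54 to 3.08 (PLXNB2), -0.87 to 11.88 (RPL4P5) and -0.53 to 11.99 (ENSG00000275807).

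Libraries of the same number showed no shared deviation (correlations of -0.02, 0.00 and -0.02 over 9595 genes between baseline and combined libraries). With 3 libraries per condition, and the shallow library among them, such correlations cannot show whether the experiments were paired. With a replicate block there were 350 and 782 DEGs and 32 and 51 departures, and genes of neither beyond each single treatment fell from 39 to 24. Another scaling moved the median change of all genes by -0.02 (RLE) and -0.05 (library totals alone). Depth limits what library 3 of onametostat in hypoxia can show of genes under about 8.07 CPM.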
